A study of Rattus norvegicus with 18 samples.

Results

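The end of the subjective day (circadian time, CT, 12, the projected dusk) was set against its start (CT 0, the projected dawn) in the rat suprachiasmatic nucleus, the paired hypothalamic cell group above the optic chiasm. Arrays were taken by the time in their titles: 0 h and 24 h for CT 0, 12 h and 36 h for CT 12. That gave 10 of the 18 arrays, which read 4 of the 8 RNA pools, 2 pools a phase. All 8740 probe sets that are not controls were described, and 4370 of them (2820 named genes) were bright enough to be tested. The animals of both phases were adult male Long-Evans rats without a genetic change or drug. They had lived in equal periods of light and dark, were put into constant darkness at a usual lights-off, and were killed from the following CT 0 onward. CT 0 and CT 12 thus differ in clock phase and in hours of darkness, with no light given in either. Each pool joined RNA of 5 rats after extraction from each animal, so the spread between animals of a time point was not measured. The 0 h and 12 h pools came from the first day and the 24 h and 36 h pools, from other rats, from the second. The remaining 4 pools (CT 6 and CT 18) entered the level filter, the estimate of the spread and the exact permutations, and their levels are given where they are compared. The study's SCN2.2 cells were not analysed here.

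In the molecular clock of mammals, the activators CLOCK and BMAL1 bind E-box sites in the promoters of their targets, among them the genes for PER and CRY proteins, for REV-ERB receptors and for DBP. The PER and CRY proteins then block the activators, and REV-ERB receptors repress the gene for BMAL1, so that Bmal1 RNA runs opposite to Dbp and Nr1d1 RNA. In the suprachiasmatic nucleus, RNA of clock-controlled outputs such as vasopressin follows this cycle, and the firing of its neurons is higher in the subjective day than in the night.

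RNA was read on the rat U34A GeneChip, a 1-colour array on which each probe set reports an intensity. Each pool was read by 1 array of a technical repeat and by 1 array of a first run, except 24 h and 36 h, where the first run held arrays a and b. Median intensities were 136.5 to 152.3 on the first-run arrays and 107.9 to 127.6 on the repeat arrays. In the first run, 3 arrays had high spiked hybridisation controls: their geometric mean was 4801 at 12 h, 4968 at 18 h and 6370 at 36 h b, against 1118 to 2417 on the other 15 arrays. A pair of these 3 arrays belongs to CT 12 and none to CT 0, and many values moved when they were left out. For that comparison the level of each run was matched per probe set. The ratio of the 3′ to the 5′ Gapdh probe sets, a measure of RNA integrity and labelling, was 8.55 to 32.5 on the CT 0 arrays and 21.7 to 26.5 on the CT 12 arrays. In the repeat it was 16.8 and 14.3 at CT 0 (0 h, 24 h) against 24.2 and 22.4 at CT 12 (12 h, 36 h). In the first run it was 8.55 at 0 h against 26.5 at 12 h. On the second day it went the other way, 32.5 and 26.6 at 24 h (a, b) against 26.2 and 21.7 at 36 h. The part of this ratio in the differences was not tested. Arrays b resembled each other across phases (24 h b with 36 h b, r = 0.9448) more than they resembled array a of their own pool (r = 0.9052 at 24 h and 0.8663 at 36 h). These correlations are across probe sets of single arrays. As nothing marks arrays as separate animals, p-values measure the spread between pools, part of which is array error.

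No transcript passed the test over the whole array. Limma, with Benjamini-Hochberg adjustment over 4370 probe sets, called 0 of 4370 (0%) at an adjusted p under 0.05, and the lowest adjusted p was 0.1475, for Dbp. At an unadjusted p under 0.05 there were 394 probe sets, of which 188 (4.3%) were higher at CT 12 and 206 (4.71%) lower, where 218.5 would be reached by the threshold alone. That count was 163 when the 0 h pool was left out, with 55.8% of it higher. Of all tested probe sets, 1013 (23.2%) had both CT 12 pools above both CT 0 pools and 943 (21.6%) had both below. Scaling each array to the same median, in place of the deposited scaling, left 448 probe sets at an unadjusted p under 0.05 but only 19.6% of them higher, against 47.7% as deposited. With no level filter 64.7% of 757 were higher. The balance of higher and lower genes therefore depends on the scaling and the filter. By level, the brightest 10% of the tested probe sets (above an intensity of 3238) had a median difference of 0.08, with 63.2% higher. After quantile normalization they were at -0.00, with 49.2% higher.

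The differences were small. Over all tested probe sets, the log2 difference of CT 12 minus CT 0 ran from -1.42 to 1.38, with a median of 0.01. It was over 2-fold higher in 15 and over 2-fold lower in 28. Among the 188 higher probe sets, the means of CT 6 and CT 18 both lay between those of CT 0 and CT 12 in 129 (68.6%). Among the 206 lower ones they did in 114 (55.3%), and over all tested probe sets in 915 (20.9%). Probe sets chosen for a large difference between CT 0 and CT 12 leave more room between them, so these shares are a description only. The same fit gave 214 probe sets (4.9%) at an unadjusted p under 0.05 for CT 6 against CT 18, and the counts of these contrasts were not tested against each other.

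**Figure D1:**
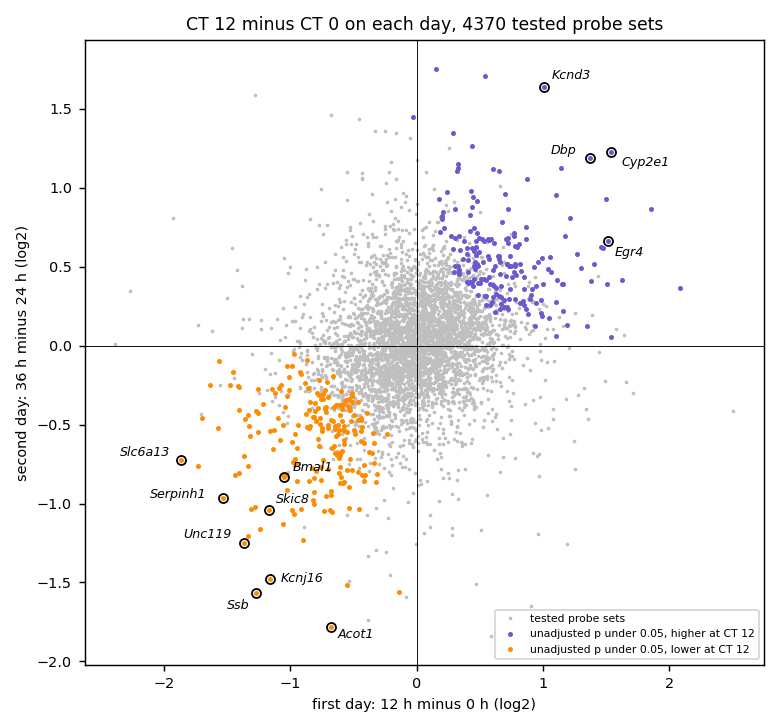
Log2 difference of 12 h minus 0 h (horizontal axis) and of 36 h minus 24 h (vertical axis) for the 4370 tested probe sets, with probe sets at an unadjusted p under 0.05 coloured by direction and some named genes circled. Dbp lies at 1.37 and 1.19 and Bmal1 at -1.05 and -0.83, while Slc6a13 (-1.86 and -0.72) and Acot1 (-0.68 and -1.78) lie far from equal differences.

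Within a single day, 164 tested probe sets differed over 2-fold on the first day (66 higher, 98 lower) and 80 on the second (34 higher, 46 lower). Only 13 did so on both days in the same direction, 4 higher and 9 lower, and 2 did so in opposite directions. The 4 higher ones are 6.06% of the first day's and 11.8% of the second day's, and the 9 lower ones 9.18% and 19.6%. The test of the day difference, (36 h minus 24 h) minus (12 h minus 0 h), gave 0 probe sets (0%) at an adjusted p under 0.05 in limma, and 142 (3.25%) below that threshold without adjustment. Slc6a13, Acot1 and Cck were among the latter. For Cck the limma fit across all probe sets gave an unadjusted p of 0.01092, for Slc6a13 0.03165 and for Acot1 0.03263. Cck, the cholecystokinin gene, was at 242 and 335 at 0 h and 12 h but at 250.4 and 87.8 at 24 h and 36 h, and its mean difference of -0.52 was -0.03 without the 3 arrays with high controls.

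Dbp, which encodes a PAR bZIP transcription factor directly driven by the clock's activators, had the smallest p on the array. Its pool intensities were 479 and 516 at CT 0 (0 h, 24 h) and 1243 and 1175 at CT 12 (12 h, 36 h). On the CT 0 arrays it was at 745, 502 and 914 in the first run (0 h, 24 h a, 24 h b) and at 309 and 393 in the repeat. On the CT 12 arrays it was at 1381, 1099 and 1415 in the first run (12 h, 36 h a, 36 h b) and at 1119 and 1107 in the repeat. Every CT 12 array was above every CT 0 array. The pools at CT 6 and CT 18 lay between, at 779 to 899. Dbp was 2.43 times as high at CT 12, a log2 difference of 1.28 ± 0.17 (SE, 2 pools a phase; limma, unadjusted p = 3.4e-05, adjusted p = 0.1475, 0.01263 to 0.9993 over the alternatives). Exact permutation of all 8 pools (two-sided) gave p = 0.004762, the smallest that the 420 assignments allow. Its second probe set was higher by 0.88 ± 0.28, with pools at 231 and 171 against 362 and 368.

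Bmal1, the activator's own gene, ran the other way. Its pool intensities were 217 and 287 at CT 0 and 105 and 162 at CT 12. Its CT 0 arrays read 184, 306 and 372 in the first run and 256 and 245 in the repeat, and its CT 12 arrays read 97.2, 152, 206, 112 and 147 in the same order. Single arrays overlapped (36 h b above 0 h of the first run), but the pools did not. The log2 difference was -0.94 ± 0.27 (SE; limma, unadjusted p = 0.006591; exact permutation p = 0.02381, two-sided), with first-run and repeat values of -0.92 and -0.96, and -0.63 without the 12 h pool. A second Bmal1 probe set, too dim to be tested, was at 162 and 135 against 37.2 and 51.8.

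Nr1d1, which encodes REV-ERB alpha, the repressor of Bmal1, was higher at CT 12. It was at 106 and 112 at CT 0 and at 194 and 231 at CT 12, a log2 difference of 0.96 ± 0.29 (SE; limma, unadjusted p = 0.009192; exact permutation p = 0.01905, two-sided). Its CT 0 arrays read 99.7, 103 and 175 in the first run and 112 and 92.9 in the repeat, and its CT 12 arrays 215, 276 and 289 and then 174 and 190. Only 24 h b of the CT 0 arrays reached the lowest CT 12 array. The brighter Nr1d1 probe set was higher by 0.73 ± 0.36. Leaving out the 3 arrays with high controls gave 1.30 for Dbp, -0.93 for Bmal1 and 0.99 for Nr1d1. Dbp, Bmal1 and the Nr1d1 probe set of smaller p kept their direction under every alternative run.

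**Figure D2:**
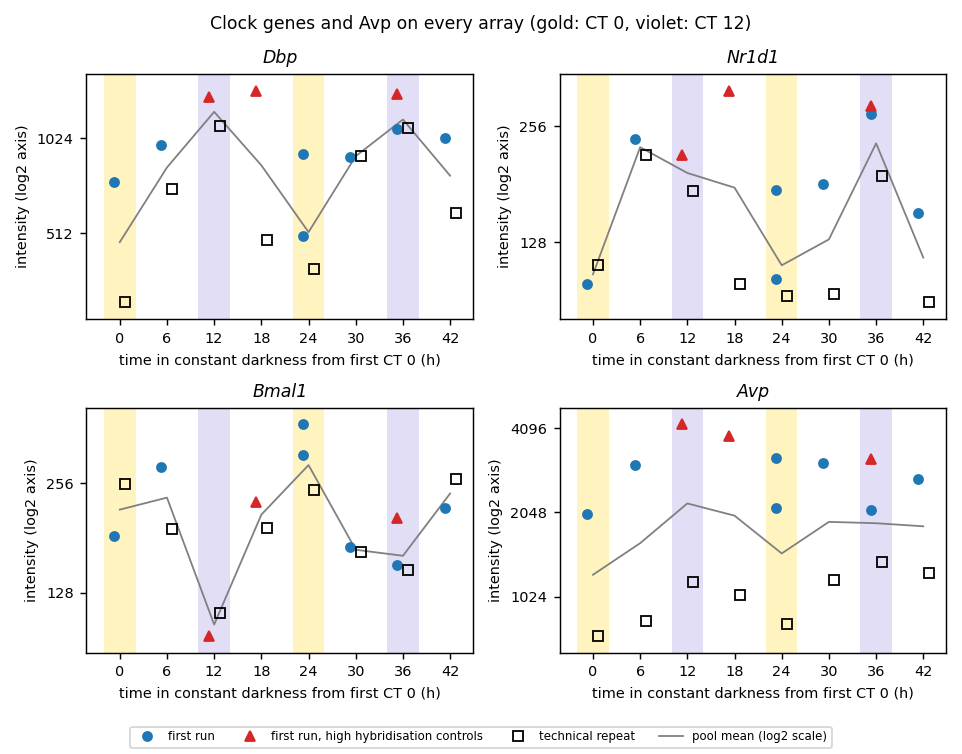
Intensity (log2 axis) of Dbp, Nr1d1, Bmal1 and Avp on each of the 18 arrays against time in constant darkness, with first-run arrays as filled circles, the 3 first-run arrays with high hybridisation controls as triangles, repeat arrays as open squares and a line through the pool means. Every Dbp array at CT 12 (1099 to 1415) is above every one at CT 0 (309 to 914), and at CT 0 and CT 12 Avp read 2027 to 4217 in the first run and 742 to 1365 in the repeat.

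The promoters of Dbp and Bmal1 are shown as those of the clock genes of smallest p in each direction, and that of Avp as the neuropeptide gene of smallest p. The sequences are from RefSeq (GRCr8), 250 bases before to 50 after the annotated gene start, read in the direction of the gene. Capitals mark any match to CACGTG (the E-box core), TTATGTAA or TTACGTAA (D-box forms, bound by DBP), TAGGTCA (the core bound by ROR and REV-ERB receptors) or TGACGTCA (the cAMP response element), on either strand. The Dbp window lies at chr1:105312006-105312305 (+ strand), that of Bmal1 at chr1:176766078-176766377 (+ strand) and that of Avp at chr3:138248473-138248772 (- strand).
Dbp: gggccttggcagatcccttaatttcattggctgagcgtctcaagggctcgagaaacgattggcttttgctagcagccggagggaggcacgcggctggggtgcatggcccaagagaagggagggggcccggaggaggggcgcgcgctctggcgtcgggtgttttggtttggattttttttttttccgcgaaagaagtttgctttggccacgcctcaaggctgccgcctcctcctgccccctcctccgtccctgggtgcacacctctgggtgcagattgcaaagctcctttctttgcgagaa
Bmal1: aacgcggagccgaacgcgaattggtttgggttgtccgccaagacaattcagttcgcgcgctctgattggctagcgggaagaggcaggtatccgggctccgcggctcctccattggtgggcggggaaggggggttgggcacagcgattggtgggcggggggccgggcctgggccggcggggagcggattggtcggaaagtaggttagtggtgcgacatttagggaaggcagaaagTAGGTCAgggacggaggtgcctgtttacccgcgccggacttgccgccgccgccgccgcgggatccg
Avp: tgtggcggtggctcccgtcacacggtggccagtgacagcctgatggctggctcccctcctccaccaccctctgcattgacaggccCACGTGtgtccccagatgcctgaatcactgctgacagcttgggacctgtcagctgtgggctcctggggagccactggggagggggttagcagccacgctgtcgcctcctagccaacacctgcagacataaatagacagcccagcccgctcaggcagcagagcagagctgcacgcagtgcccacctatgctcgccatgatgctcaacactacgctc
The Bmal1 window holds TAGGTCA from 16 bases before the start, and the Avp window holds CACGTG from 165 bases before it. The Dbp window holds none of these motifs. CCAAT, the site of NF-Y, is not in capitals and was found 5 times in the Bmal1 window and at 2 places in that of Dbp. A match is a description of letters, not of a bound site.

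Over all genes, CACGTG was in 6.65% of the 27457 RefSeq promoters and in 9.43% of those of the 2311 tested genes with an entry. It was in 12 of 119 promoters (10.1%) of genes higher at an unadjusted p under 0.05 and in 11 of 133 (8.27%) of those lower. TAGGTCA was in 2.03% of the tested genes' promoters, in 2 of 119 (1.68%) and in 6 of 133 (4.51%). TGACGTCA was in 2.6%, in 2 of 119 (1.68%) and in 6 of 133 (4.51%), among the latter that of Skic8. TTATGTAA and TTACGTAA were in 0 of 119 and 0 of 133 and in 0.26% and 0.13% of the tested genes' promoters. CCAAT was in 38.5% of the tested genes' promoters, in 44 of 119 (37%) and in 55 of 133 (41.4%).

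Of the core clock list, 12 of 25 genes were on the array and 10 were tested. At CT 12, 9 of these were higher (90%, against 52.3% of all tested genes) and 1 (Bmal1) lower. The median difference was 0.23, against 0.02 over all tested genes. At an unadjusted p under 0.05 there were 2 of the 10 on the brightest probe set of each gene, Dbp (higher) and Bmal1 (lower). Each is 10% of the list, against 4.4% higher and 3.72% lower of all tested genes. The other PAR bZIP genes differed little: Tef was at 224 and 276 at CT 0 and 278 and 301 at CT 12, and Hlf at 137 and 125 against 115 and 209. Tef differed by 0.22 ± 0.21 and Hlf by 0.24 ± 0.30. Bhlhe40 and Bhlhe41 encode repressors of E-box genes. Bhlhe40 was at 122 and 150.1 against 163 and 167 (0.29 ± 0.21), and Bhlhe41, far brighter, at 4160 and 4807 against 5421 and 4992 (0.22 ± 0.24). Csnk1d, the kinase that phosphorylates PER proteins, was higher by 0.32 ± 0.21 and 0.32 ± 0.17 on its probe sets. Per2 was at 276 and 283 against 323 and 271 (0.08 ± 0.31), and Nr1d2, the second REV-ERB gene, at 810.1 and 808 against 803 and 824 (0.01 ± 0.22). No difference was detectable for Per2 or Nr1d2 with these pools. Without the 3 arrays with high controls Bhlhe41, Hlf and 1 Csnk1d probe set changed sign (-0.19, -0.07 and -0.08), Tef was at 0.02, Per2 at 0.42 and Nr1d2 at 0.28.

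Avp, the vasopressin gene and a main peptide of the shell of the nucleus, was the neuropeptide of smallest p. It was at 1226 and 1461 at CT 0 and at 2204 and 1873 at CT 12, a log2 difference of 0.60 ± 0.19 (SE; limma, unadjusted p = 0.01227; exact permutation p = 0.01429, two-sided). In the repeat its CT 0 arrays read 742 and 819.6 and its CT 12 arrays 1152 and 1365. In the first run, at a higher level, the CT 0 arrays read 2027, 2128 and 3189 and the CT 12 arrays 4217, 2082 and 3172, so that 3 of 5 array pairs of the same day, run and letter were higher. Without the 3 arrays with high controls, the 12 h array of 4217 among them, the difference was 0.40. A second Avp probe set was at 346 and 422 against 469 and 466 (0.29 ± 0.20).

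Nmu, the neuromedin U gene, was at 418 and 386 at CT 0 and 505 and 625 at CT 12 (0.48 ± 0.20; limma, unadjusted p = 0.03651). Vip, the main peptide of the core of the nucleus, lay below the level filter, at 78.6 and 68.4 against 30.9 and 46.1, and was not tested. Sst, the somatostatin gene, was bright (4492 to 7656) with no consistent direction, 0.11 ± 0.27 and -0.04 ± 0.22 on its probe sets (-0.15 and -0.0019 without the 3 arrays with high controls). Of 13 tested genes of the neuropeptide list, 8 were higher and 5 lower, with a median of 0.09 (0.05 without the 3 arrays with high controls and 0.00 scaled to the same median per array). Penk, Pdyn, Gal, Tac1, Calb1 and Calb2 differed by at most 0.28 in size. Cartpt, the gene of the CART peptides, was at 1057 and 1036 against 732 and 820.2 (-0.43 ± 0.26).

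The 15 named genes with the smallest p in each direction, among those whose pools did not overlap, span many functions and also differ in how well the runs bear them out. In the first run alone 288 of all 4370 tested probe sets had an unadjusted p under 0.05 in limma, and in the repeat alone 320 of 4370. In 20 probe sets this was so in both runs in the same direction, which is 6.94% and 6.25% of each. In 5 others it was so in opposite directions. Both runs read the same pools, so this count is about array error and not about animals. Whether the overlap exceeds that of unrelated lists of these sizes was not tested. The 15 named genes among the 20 were Dbp, Nr1d1, Cyp2e1, Pth1r, Sgk2, Pfkfb1 and Dnm1, higher at CT 12, and Serpinh1, Plat, Gsta1, Ssh3, Dnaja2, Mapk9, Gadd45a and Cd24, lower. All 5 array pairs were higher at CT 12 in 305 probe sets (6.98% of all tested) and lower in 299 (6.84%). Among those at an unadjusted p under 0.05 the counts were 92 of 188 and 106 of 206.

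Of the genes higher at CT 12, Cyp2e1, an ethanol-inducible cytochrome P450, had the largest difference, with pools at 113 and 118 against 329 and 276 (1.38 ± 0.23). It was at 59.7, 50.9, 480, 215 and 89.0 on the CT 0 arrays and at 255 to 347 on the CT 12 arrays, so 24 h b alone exceeded CT 12. Dnm1, which encodes the GTPase dynamin 1 that pinches off synaptic vesicles in endocytosis, was the brightest of the 30, with pools at 20480 and 20680 against 30320 and 32960 (0.62 ± 0.17). Its CT 0 arrays read 17560 to 24750 and its CT 12 arrays 41390, 29610 and 42280 in the first run and 22210 and 30700 in the repeat, so the 12 h repeat array lay within CT 0. With the 3 arrays with high controls left out its difference was 0.34. Sgk2, a kinase related to the serum- and glucocorticoid-regulated kinase, was at 244 and 277 against 402 and 435 (0.69 ± 0.18). On single arrays Sgk2 was at 198 to 301 at CT 0 and at 354 to 476 at CT 12, without overlap.

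Pth1r, the receptor for parathyroid hormone, was at 98.7 and 115 against 172 and 177, with a difference of 0.71, the same in each run. Pfkfb1, which makes and breaks down the glycolytic activator fructose 2,6-bisphosphate, was at 323 and 304 against 539 and 450.1 (0.65 ± 0.18). Sprr1a, a small proline-rich protein gene, was at 91.8 and 96.1 against 146 and 166. Kcnd3, Il2rb, Ddr1, Fgfr4, Cox6c and Or10al7 were higher by 0.73 to 1.33, with differences of 1.10 to 2.03 in the first run alone and repeat differences of 0.02 to 0.62. Inhbb, a subunit of activins and inhibins, showed the reverse, with a difference of 0.10 in the first run but 1.55 in the repeat. Kcnd3 was at 0.83, Il2rb at 0.49 and Or10al7 at 0.48 once the 3 arrays with high controls were left out.

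Among the genes lower at CT 12, Serpinh1, which encodes the collagen chaperone HSP47, was at 349 and 243 at CT 0 and at 121 and 124 at CT 12 (-1.25 ± 0.23). On its CT 0 arrays it read 411, 267 and 122 in the first run and 297 and 326 in the repeat, and on its CT 12 arrays 103, 151 and 36.6 and then 141 and 207. All 5 array pairs were lower, although 24 h b overlapped CT 12. Plat, tissue plasminogen activator, was at 428 and 419.8 against 253 and 246 (-0.76 ± 0.17), and Gsta1, a glutathione transferase, at 1347 and 1236 against 768 and 690.4 (-0.83 ± 0.18). Without the 3 arrays with high controls Plat was at -0.47 and Gsta1 at -0.41. Nup58, a nucleoporin, was at 544 and 554 against 360 and 312 (-0.71), and at -1.15 without those arrays. Ssh3, a phosphatase that activates the actin-severing protein cofilin, was at 181 and 168 against 97.2 and 71.7.

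Acot1, an acyl-CoA thioesterase, was at 186 and 215 against 116 and 62.5, and 1 repeat array at 36 h read 24.0. Kcnj16, an inwardly rectifying potassium channel, was at 239 and 202 against 107 and 72.8 (-1.32 ± 0.23). That value rests on a pair of arrays, 57.7 at 12 h in the first run and 27.1 at 36 h in the repeat, with the other CT 12 arrays at 195 to 199. It was -0.67 without the 3 arrays with high controls. Slc6a13, the GABA transporter GAT2, was at 234 and 229 against 64.4 and 138 (-1.29 ± 0.31), and -0.55 without those arrays.

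**Figure D3:**
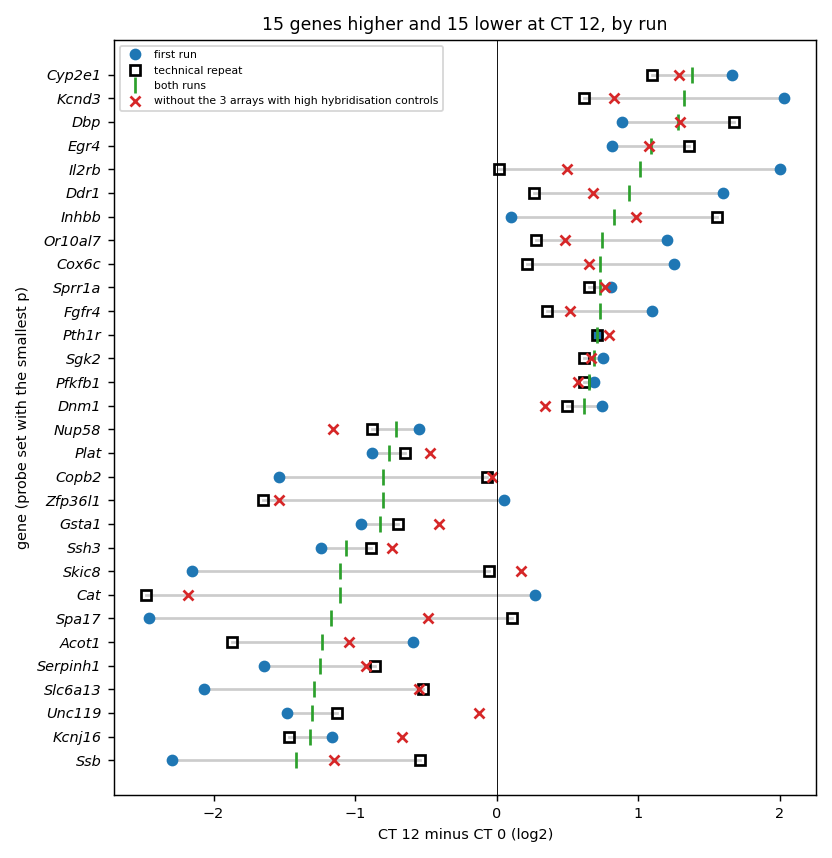
Log2 difference of CT 12 minus CT 0 for the 15 genes higher and 15 lower, in the first run (circles), the technical repeat (squares), both runs (green bars) and without the 3 first-run arrays with high hybridisation controls (crosses). Pth1r (0.71 in each run), Sgk2 (0.75 and 0.62) and Pfkfb1 (0.69 and 0.62) lie close together, while Cat (0.27 and -2.48), Spa17 (-2.45 and 0.11), Skic8 (-2.15 and -0.05) and Il2rb (2.00 and 0.02) lie far apart.

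Several of these differences came from particular arrays of a pool. Unc119, a chaperone of lipid-modified proteins, had the second-smallest p of all, with pools at 336 and 257 against 131 and 108 (-1.31 ± 0.21). Its first-run CT 12 arrays read 81.3 at 12 h, 574 at 36 h a and 99.0 at 36 h b, against 628, 543 and 107 at CT 0. Its repeat arrays read 210 at 12 h and 48.7 at 36 h, against 180 at 0 h and 273 at 24 h. Without the 3 arrays with high controls the difference was -0.12. Skic8, a subunit of the SKI complex of RNA decay, was at 52.0 and 12.9 on the 12 h and 36 h b arrays and at 370.2 to 417 on the other 3 CT 12 arrays, against 149 to 459 at CT 0. Its difference of -1.10 became 0.17 without the arrays with high controls. Copb2, a coatomer subunit, was at 86.9 and 73.3 on those 2 arrays and at 203 to 317 on the other 3 at CT 12, and went from -0.80 to -0.03.

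Spa17 and Ssb split by run. Spa17, a sperm surface protein gene, was at 20.1 to 26.1 on the 3 first-run CT 12 arrays and at 241 and 272 in the repeat, and its difference was -2.45 in the first run and 0.11 in the repeat. Without the arrays with high controls it was at -0.48. Ssb, the La protein that binds new RNA polymerase III transcripts, was at -2.29 and -0.54, and its brighter probe sets at -0.17 and 0.05. Cat (catalase) and Zfp36l1, which promotes decay of mRNAs with AU-rich elements, rested on the repeat. Cat was at 3144 and 1962 at CT 0 and 280.4 and 709 at CT 12 in the repeat (-2.48), but at 0.27 in the first run, where the a and b arrays were far apart: 347 and 3212 at 24 h and 278 and 3298 at 36 h. Zfp36l1 was at -1.65 in the repeat and 0.05 in the first run. Without the arrays with high controls Cat was at -2.18 and Zfp36l1 at -1.54.

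**Figure D4:**
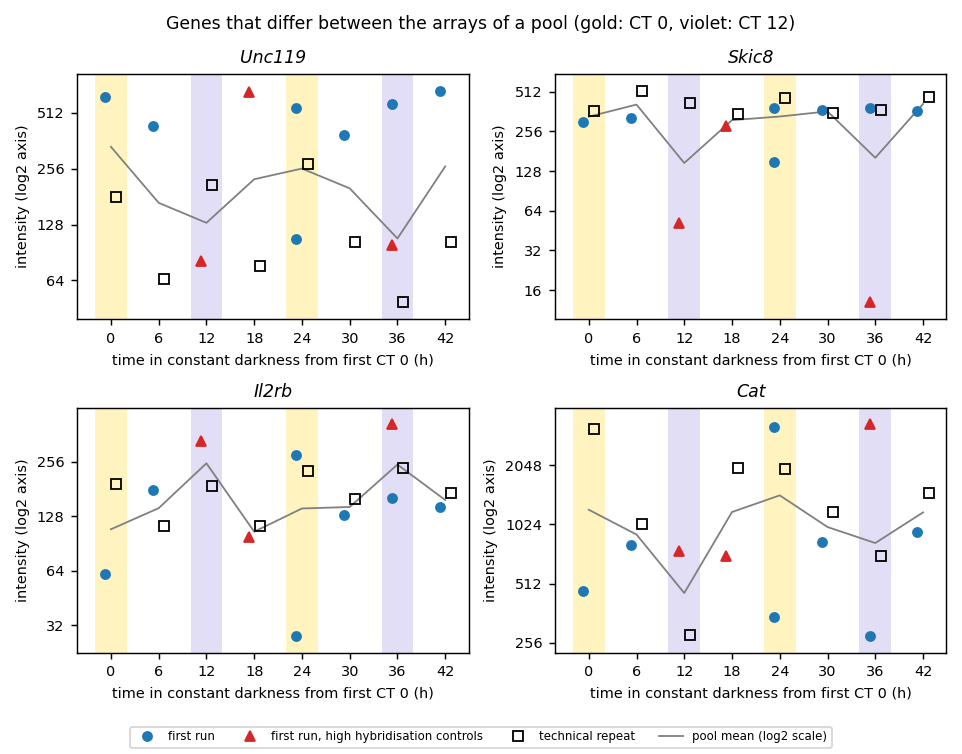
Intensity (log2 axis) of Unc119, Skic8, Il2rb and Cat on each of the 18 arrays against time in constant darkness, with the same symbols by run as in the plot of clock genes and a line through the pool means. The low Skic8 arrays at CT 12 (52.0 and 12.9) are the 12 h and 36 h b arrays with high hybridisation controls, and Cat differs widely between arrays a and b of 24 h (347 and 3212) and of 36 h (278 and 3298).

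Genes with several probe sets offer a comparison within the same pools. Some of these probe sets share a sequence entry, as both Dbp probe sets do, so they are not independent readings. Each probe set at an unadjusted p under 0.05 was paired with each other tested probe set of its gene. A pair in which both had such a p was thus counted from each side. Of 85 such pairings on the higher side, the other probe set was higher too in 59 (69.4%), with such a p in 10 (11.8%). Of 99 on the lower side, it was lower too in 70 (70.7%), with such a p in 18 (18.2%). Of all tested probe sets, 4.3% were higher and 4.71% lower at such a p. Over all 634 genes with several tested probe sets, 57.6% of pairs had the same sign. Probe sets with such a p in the same direction were found in Dbp, Cyp2e1, Pth1r, Grin2c and Ppp1r1a (higher) and in Gsta1, Zfp36l1, Dnaja2, Cd24 and Cdc42 (lower). In some named genes a brighter probe set gave another value. Kcnd3 was at -0.47 on its brightest probe set against 1.33, Egr4 at -0.20 against 1.09, Cox6c at 0.05 against 0.73 and Sprr1a at 0.09 against 0.73.

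The heat shock and protein folding genes, the chaperones that fold proteins in the cytosol, mitochondria and endoplasmic reticulum, were mostly lower at CT 12. Of 26 tested genes, on the brightest probe set of each, 21 were lower and 5 higher, with a median of -0.25 against 0.02 over all tested genes. Both CT 12 pools were below both CT 0 pools in 13 of 26, against 574 of all 2820 genes, and above in 1. At an unadjusted p under 0.05 there were 4 lower (Serpinh1, Dnaja1, Chordc1 and Hspa9) and 1 higher (Hspe1), against 105 lower and 124 higher of all genes. None passed adjustment. The median was -0.24 on the first day and -0.26 on the second, and -0.05 in the first run and -0.39 in the repeat. Dnaja1, a partner of HSP70 proteins, was at 7295 and 5670 against 2894 and 4177 (-0.89 ± 0.25). Hspa9, the mitochondrial HSP70, was at 1777 and 1723 against 1083 and 891 (-0.83 ± 0.31), and Chordc1, which binds HSP90, at 2923 and 3057 against 2247 and 1918 (-0.53 ± 0.18). Hspe1, the mitochondrial co-chaperonin, went the other way, at 13460 and 16920 against 21350 and 20910 (0.49 ± 0.18). Hspd1 and Hspb1 differed by -0.04 and -0.03. The median was -0.33 without the 3 arrays with high controls, and under quantile normalization -0.30.

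Genes of RNA binding and splicing and of translation were also more often lower. Of 15 tested RNA binding genes 11 were lower (73.3%, against 47.7% of all tested genes). The list median was -0.17 (-0.25 on the first day and -0.21 on the second). The pools were below in 9 (60%, against 20.4% of all tested genes). In limma 0 of these 15 had an unadjusted or adjusted p under 0.05. Hnrnpa2b1, a splicing regulator, was at 6481 and 5989 against 4546 and 4960 (-0.39), and Tra2b at 759 and 984 against 604 and 678 (-0.43). Dimmer tested Hnrnpa2b1 probe sets were at -0.36 and -0.05, and dimmer tested Tra2b probe sets at -0.06 and 0.46. Of 15 translation factors 11 were lower (73.3%, against 47.7% of all tested genes, median -0.17). They were led by Eif4e, the cap-binding protein, at 579 and 502 against 320 and 416 (-0.56 ± 0.21). Leaving out the 3 arrays with high controls, the medians were -0.13 and -0.05.

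Nuclear-coded genes of oxidative phosphorylation and of ribosomes leaned the other way on the deposited scale. Of 24 oxidative phosphorylation genes 16 were higher (66.7%, against 52.3% of all tested genes), with a median of 0.08. At an unadjusted p under 0.05 there were 4, all higher (16.7%, against 4.4% of all tested genes). Those were Cox4i1 at 2209 and 3374 against 4606 and 4650.0 (0.76 ± 0.24), Atp5po (0.55 ± 0.20), Cox6a1 (0.51 ± 0.21, and 0.33 without the 3 arrays with high controls) and Cox8a (0.44 ± 0.18), each higher in 5 of 5 array pairs. A dimmer Atp5po probe set was lower by a similar size (-0.65 ± 0.21), and a dimmer Cox6a1 probe set was at 0.05. Dimmer tested Cox8a probe sets were at 0.17, 0.16 and 0.18, and a dimmer tested Cox4i1 probe set at 0.33. Sdha and Atp5pf were lower in both pools, by -0.39 and -0.29. Of 39 ribosomal protein genes 26 were higher, with a median of 0.12, 0.25 on the first day and -0.01 on the second. Rpl3 was at 19340 and 20200 against 30720 and 26260 (0.52 ± 0.21), but a dimmer Rpl3 probe set was lower in both pools (-0.26 ± 0.17). Scaled to the same median per array, the list medians were -0.00 and 0.03, where that of all tested genes was -0.07.

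**Figure D5:**
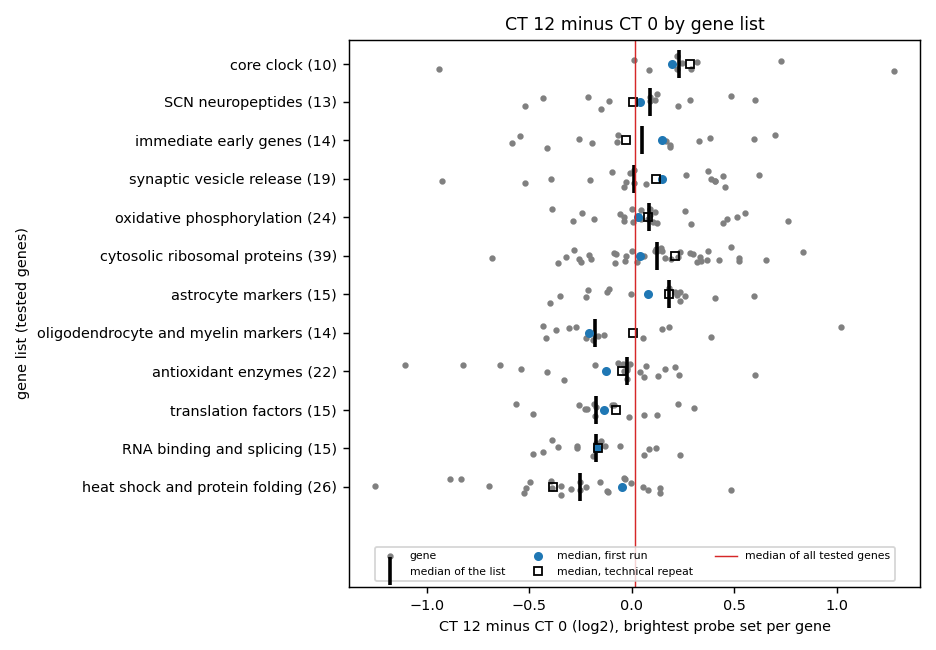
Log2 difference of CT 12 minus CT 0 for the tested genes of 12 lists (grey points, 1 probe set per gene), with the list median (black bar), its values in the first run and the repeat, and the median of all tested genes (red line, 0.02). Of the lists shown, heat shock genes lie lowest, at -0.25, with first-run and repeat medians of -0.05 and -0.39.

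Synaptic vesicle genes held 4 higher and 1 lower at an unadjusted p under 0.05 among 19 tested (21.1% and 5.26%, against 4.4% and 3.72% of all tested genes). The median was 0.01, 0.08 without the 3 arrays with high controls and -0.08 scaled to the same median per array. Besides Dnm1, Stx1a (syntaxin 1A, a fusion protein) was at 2433 and 3060.0 against 3840.0 and 3585 (0.44 ± 0.18), and 0.08 without the 3 arrays with high controls. A dimmer Stx1a probe set was at 0.04. Doc2a and Syt3, calcium sensors of release, were higher by 0.40 each, and Syt4 was lower, at 611 and 390 against 299 and 221 (-0.93 ± 0.33). Of 14 immediate early genes 7 were higher and 7 lower. Egr1, induced by neuronal activity, was at 5100.0 and 4261 against 8043 and 6155 (0.59 ± 0.22, 5 of 5 array pairs), Nr4a2 at 95.5 and 119 against 133 and 224 (0.70 ± 0.26, and 0.32 without the 36 h pool), and Fos at 347 and 406 against 451 and 491 (0.33). A dim Egr1 probe set (122 and 143 against 69.0 and 104.6) was at -0.64 ± 0.22, opposite to the bright one, and another dim tested one was at -0.01. Jun was at 441 and 380 against 339 and 219 (-0.59), with a dimmer probe set at 0.21. The bright Egr1 probe set was at 0.39 when the 3 arrays with high controls were left out.

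Of 22 antioxidant genes 14 were lower and 8 higher (median -0.02, and -0.08 without the 3 arrays with high controls). Besides Gsta1 and Cat, Gclm, a subunit of the enzyme that starts glutathione synthesis, was at 330.1 and 330.3 against 217 and 206 (-0.64 ± 0.24). Prdx3, a mitochondrial peroxiredoxin, was at 1918 and 1910 against 1346 and 1530 (-0.42 ± 0.17), and -0.20 without the arrays with high controls. Gstm2 was higher, at 195 and 234 against 267 and 393. In signalling, Mapk9, the stress kinase JNK2, was lower in all 5 array pairs, at 298 and 390 against 158 and 191 (-0.98). Klf9 and Sgk1, which glucocorticoids induce, were higher in 5 of 5 array pairs: Klf9 at 1603 and 2242 against 2843 and 3104 (0.65 ± 0.22), Sgk1 at 234 and 238 against 724 and 317 (1.02 ± 0.45). Pdk2, a kinase that inhibits pyruvate dehydrogenase, was at 1246 and 1295 against 1964 and 1775 (0.56). A dimmer Pdk2 probe set was at 0.02.

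In the lists for GABA signalling (14 tested), glutamate receptors (11), potassium channels (15), calcium, sodium and HCN channels (14), dense-core vesicles (15), cAMP, calcium and MAP kinase signalling (25), glycolysis (18), cholesterol and fatty acid synthesis (15) and the proteasome (27), medians lay between -0.11 and 0.10. They lay between -0.17 and 0.12 without the 3 arrays with high controls, where glutamate receptors turned from 0.10 to -0.17 and potassium channels went from -0.11 to -0.0014, and between -0.19 and 0.01 scaled to the same median per array. Each held 0 to 2 genes at an unadjusted p under 0.05, where 4.4% of all tested genes were higher and 3.72% lower at such a p. For SCN receptors and transcription factors 4 were tested and for glucocorticoid-responsive genes 6, with medians of 0.03 and 0.19. Without the arrays with high controls these were -0.02 and 0.02, and that of the glucocorticoid list was 0.0003 after quantile normalization and -0.0034 without the 0 h pool. Cytoskeleton genes had a median of -0.15, with Tubb2b (0.55) and Tuba1b (0.44) higher and Sptan1 (-0.73) and Tuba4a (-0.43) lower. Without the arrays with high controls Tubb2b was at 0.18, Tuba1b at 0.18 and Sptan1 at 0.10. Extracellular matrix genes had a median of -0.16, and -0.03 without those arrays. In that list Tnc (tenascin C) was higher, at 198 and 120 against 268 and 287 (0.85 ± 0.24), and 0.55 without those arrays.

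Markers of the other cells a dissection can hold were read in the same pools, where fewer cells of a type and less RNA per cell cannot be told apart. The summed intensity of the 15 astrocyte markers was 104700 and 106300 at CT 0 and 134900 and 117000 at CT 12, without overlap, with 8 higher and 7 lower and a median of 0.18 (-0.01 after quantile normalization). Apoe, among the brightest, was at 17900 and 18990 against 33400 and 23260 (0.60 ± 0.24, 0.38 without the arrays with high controls), and Fabp7 was lower (-0.40 ± 0.18). A dimmer Apoe probe set was at -0.09. The 14 oligodendrocyte markers summed to 49710 and 51990 against 49530 and 45100, also without overlap, with 9 lower and a median of -0.18 (-0.05 without those arrays). Pan-neuronal markers summed to 41310 and 40180 against 41550 and 44610 (14 genes), again without overlap and higher in sum although 10 of the 14 were lower. The brightest genes weigh most in these sums. Among all tested genes, 24.2% had both CT 12 pools above both CT 0 pools and 20.4% had both below. Markers of microglia (25720 and 26870 against 20720 and 28010), of vessels and blood (16560 and 12780 against 15020 and 14760) and of choroid plexus (6460 and 8985 against 6689 and 7898) overlapped between phases. Neighbouring hypothalamic neurons (9 genes) summed to 7024 and 7649 against 7480 and 6492, with 4 higher and 5 lower and a median of -0.05. Of these 9 genes, 1 was higher and 1 lower in all 5 array pairs. Of the defining genes of these cell types none was at the floor: Oxt was at 2274 to 3470, Hcrt at 452 to 550, Aif1 of microglia at 112 to 136 and Ttr of choroid plexus at 94.6 to 172. Pmch, which encodes the peptide MCH of lateral hypothalamic neurons, was lower in 5 of 5 array pairs, at 364 and 373 against 207 and 190 (-0.90, -0.42 without the arrays with high controls). The part of these cells in the results was not tested.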

How the data were processed

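The deposited values are probe set intensities on a linear scale; how the authors summarised the probes is not given in the sources used here, and they were kept as deposited. Intensities below the 10th percentile of the table (12.1) were set to it, and the values put on the log2 scale. Where a first-run time point had arrays a and b, taken to read 1 pool, their mean was used, and it was averaged with the technical repeat. Of 8799 probe sets, 59 controls were left out. Probe sets with a mean over the 8 pools above the median (121.3) were tested, 4370 in all.

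The difference was a contrast of 4 phase means over the 8 pools (lmFit and eBayes of limma 3.58.1, run in R 4.3.3, with 4 residual and 5.06 prior degrees of freedom), with Benjamini-Hochberg adjustment and a threshold of 0.05. The day difference had 2 residual degrees of freedom. Both fits were checked on simulated pools. All log2 differences are CT 12 minus CT 0. Array pairs join arrays of the same day, run and letter. Gene names came from the platform annotation: 7006 probe sets had 1 symbol, 308 several and 1426 none.

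The members and lists were chosen with earlier results of these data known. The genes named are the tested and untested members of the clock and neuropeptide lists, the 15 genes of smallest p in each direction whose pools did not overlap, and up to 4 members of each of 30 lists by p. Syt3, Gstm2, Fos, Hspe1, Hspd1, Hspb1, Hcrt, Aif1, Ttr, Sdha, Atp5pf, Dnaja2, Gadd45a, Cd24, Cdc42, Ppp1r1a and Slc8a2 were chosen after their values were seen. Promoters were matched by symbol. The alternatives were other scalings, filters and floors, other models, either run, arrays or pools left out, and, added after seeing the data, the 3 arrays with high hybridisation controls left out.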

Additional observations from a re-analysis of the deposited data

Results flagged for a closer look

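In the genes named for the clock, the neuropeptides and the smallest p-values, 2 single arrays stood far from the other 4 of their phase, where chance alone marks about 1 in 20 groups. CT 0 and CT 12 were each checked for every tested probe set of these genes, so some marks are expected by chance. The 2 are given as readings only. Nup58 read 129.1 on array a of the first run at 36 h, below the 359 to 504 of the other CT 12 arrays. Plat read 314.6 on array b of the first run at 24 h, below the 424 to 470.0 of the other CT 0 arrays and so nearer to its CT 12 values.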

How the results depend on the processing

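Under the alternatives limma called 0 probe sets after adjustment, with these exceptions: 2 with the level filter at the 75th percentile (Dbp and 1 unnamed probe set), 1 with trend and robust options (Dbp), 2 in the technical repeat alone, 1 without arrays b (Slc8a2, 1.95) and 1 in the fit to single arrays (Dbp, 1.19). The unadjusted count of 394 became 757 with no level filter, 224 with that filter at the 75th percentile and 163 to 462 without 1 pool, lowest without the 0 h pool. Both filters change how many probe sets are tested; the cause of the drop without 0 h was not tested. The count for the day difference (142) became 417 and 34 under the same filters. With day as a replicate block, pairing 12 h with 0 h and 36 h with 24 h, 0 were called and 384 had an unadjusted p under 0.05. The labels give no number that pairs pools by day.

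Of 96 named probe sets followed, 77 kept their direction under every alternative run. Reversed were, in the first run alone, Cat (0.27), Gal (-0.10), Nr1d2 (-0.19), Penk (-0.099), Per2 (-0.077), Tgfa (0.040) and Zfp36l1 (0.049). In the repeat alone they were Adcyap1 (-0.097), Spa17 (0.11), Sst (0.30) and Tac1 (-0.036). Scaled to the median they were Nr1d2 (-0.079), Pdyn (-0.0015) and Per2 (-0.0046), under quantile normalization Sst (0.0054), and without arrays a Nr1d2 (-0.048) and Sst (0.029). Without 1 pool at a time Adcyap1 ran from -0.026 to 0.47, Cck from -1.49 to 0.44, Hlf from -0.18 to 0.67, Nr1d2 from -0.010 to 0.027, Per2 from -0.044 to 0.21 and the Sst probe sets from -0.24 to 0.16 and from -0.27 to 0.50. Cox4i1 was at 0.46, Klf9 at 0.41, Stx1a at 0.28 and Syt4 at -0.60 without 0 h, and Tnc at 0.49 without 24 h. Without 12 h Apoe was at 0.34, Sgk1 at 0.43, Slc6a13 at -0.74, Cat at -0.68, Eif4e at -0.37, Tubb2b at 0.34, Sptan1 at -1.11 and Nr4a2 at 1.07. Without 36 h Acot1 was at -0.78, Sgk1 at 1.62, Sptan1 at -0.35 and Nr4a2 at 0.32. Without the 3 arrays with high controls Adcyap1 (-0.064), Bhlhe41 (-0.19), Csnk1d (-0.077), Hlf (-0.075), Skic8 (0.17), Sptan1 (0.097) and Sst (-0.15) reversed. Of the 15 higher and 15 lower genes, 11 then shrank by over 1.5 times, 3 grew by over 1.5 times, 1 reversed and 15 stayed within 1.5 times. The causes were not tested. With 2 pools a phase, small differences are not detectable.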
